A study of Mus musculus with 8 samples.

Results

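The 10 genes described here encode the core of the BCL2 family, the proteins that decide whether the mitochondrial outer membrane is kept closed or opened during apoptosis. They were chosen by name, as 3 pro-survival genes (Bcl2, Bcl2l1 and Mcl1), 5 genes of BH3-only proteins (Bcl2l11, Bmf, Bbc3, Bid and Bad) and 2 effector genes (Bax and Bak1), and found in the table through their Entrez identifiers. Of the 10, 9 had a row among the 11723 listed genes, and Bak1 was not analysed here. RNA was sequenced from CD8 T cells that had been purified by flow sorting from peripheral lymph nodes of BALB/c mice at 12 days of age. The IL-2-KO group (4 libraries) came from mice without interleukin-2, with 26.7, 42.6, 1.1 and 0.4 M (1e6) sorted cells for replicates 1 to 4. The WT group (4 libraries) came from 115, 28.7, 1.3 and 1.3 M cells of 5, 5, 3 and 2 pooled mice. Pooling is not stated for IL-2-KO, the series' design text adds spleen as a source and allows heterozygous mice among the controls, and BALB/c is the strain of both groups.

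Pro-survival members bind and hold the BH3-only proteins and the effectors Bax and Bak1. BH3-only proteins are sensors of cytokine loss, DNA damage and detachment, and when free they let the effectors form pores that release cytochrome c. In T cells, interleukin-2, interleukin-7 and interleukin-15 are known to sustain Bcl2 and Mcl1 through STAT5, and Bcl2l11 (Bim) is the main BH3-only protein of T cell contraction after cytokine withdrawal.

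All members share a BH3 region, a short helix in which a leucine and an aspartate are conserved. It is shown for the members whose levels are set against each other below, as the coding strand from GENCODE M21 transcripts of GRCm38, 27 bases 5′ to 3′, with the leucine and aspartate codons in capitals.
Bmf: CTTcagtgtattgcaGACcagttccat
Bbc3: CTGcggcggatggcgGACgacctcaac
Bcl2l11: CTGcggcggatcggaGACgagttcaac
Bcl2: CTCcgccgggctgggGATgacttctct
Mcl1: CTGcggcgcgtgggcGACggcgtgcag
The Bmf stretch lies in exon 4 at chr2:118545100-118545126 on the minus strand, and the Bbc3 stretch in exon 3 at chr7:16313773-16313799 on the plus strand. The Bcl2l11 stretch lies in exon 3 at chr2:128147150-128147176 (plus), the Bcl2 stretch in exon 1 at chr1:106712575-106712601 (minus) and the Mcl1 stretch in exon 1 at chr3:95659436-95659462 (plus). Bcl2l11 and Bbc3 had the same base at 22 of the 27 positions, Bcl2l11 and Bmf at 18, and Bcl2 and Bmf at 13.

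Levels are TMM-scaled counts per 1e6 (CPM). The table gives no counts, and they were estimated here from the steps between low values. By that estimate the libraries held 11.9 to 18.4 M counts, so that a value of 1 stood for 11.9 to 18.6 counts. Il2 itself was listed at 5.13, 7.32, 8.42 and 4.25 CPM in IL-2-KO and 5.72, 5.65, 6.25 and 5.91 CPM in WT libraries (exact two-sided permutation p = 0.857, 70 assignments). The table does not say over which exons these reads lay, and Il2 is therefore no test of the genotypes. The 7 CD8 T cell markers summed to 4916 to 5716 CPM in IL-2-KO and 5649.9 to 6579.8 CPM in WT, and 1 of them, Thy1, fell. IL-2-KO replicate 3 and WT replicate 2 stood apart: their 3 measured myeloid markers summed to 315 and 50.4 CPM, against at most 6.51 and 5.07 CPM in the other libraries of their groups. Most of both sums was Lyz2, at 296 and 40.0 CPM. S100a9 was at 5.38 and 6.07 CPM, against at most 1.08 and 0.979 CPM in the others of their groups. Itgam was at 14.0 CPM in IL-2-KO replicate 3, but at 4.32 CPM in WT replicate 2 it lay close to WT replicate 1 (3.84 CPM). Summed CD4 and regulatory T cell markers (5 genes) ranged from 64.9 to 236 CPM in IL-2-KO and 14.1 to 93.1 CPM in WT. Most of that gap was Ctla4, also an activation gene of CD8 T cells, with 51.5 to 171 CPM for IL-2-KO and 5.79 to 30.8 CPM for WT. Foxp3, the defining gene of regulatory T cells, ranged from 2.69 to 3.56 CPM for IL-2-KO and from 3.92 to 4.49 CPM for WT. Cd4 reached 45.5 CPM in IL-2-KO replicate 3 and 38.6 CPM in WT replicate 2, and was at most 2.48 and 1.68 CPM in the others of their groups. Dendritic cell markers (3 genes) summed to 30.7 to 145 CPM in IL-2-KO and 30.5 to 73.4 CPM in WT. NK cell markers (4 genes) summed to 358 to 457 CPM in IL-2-KO and 265 to 311 CPM in WT. Nearly all of that sum was Nkg7, at 352 to 428 CPM in IL-2-KO and 261 to 299 CPM in WT. Klrb1c, Klre1 and Tyrobp were at most 2.53, 13.1 and 34.8 CPM in IL-2-KO and 2.81, 3.12 and 11.9 CPM in WT. B cell (2 genes), plasma cell (2), erythroid (3) and stromal markers (3) summed to 12.0 to 33.0, 42.5 to 60.9, 8.06 to 32.9 and 178 to 206 CPM in IL-2-KO, and to 14.9 to 23.6, 36.8 to 50.3, 11.2 to 70.1 and 191 to 218 CPM in WT. Most of the plasma cell sum was Xbp1 (40.2 to 52.3 CPM in IL-2-KO, 35.6 to 47.1 CPM in WT). Most of the stromal sum was Pecam1 (175 to 204 CPM in IL-2-KO, 188 to 212 CPM in WT). No measured marker was at 0 in any library. IL-2-KO replicates 1 and 3 had lower values of long transcripts: the median log2 deviation of the longest quartile of transcripts minus that of the shortest was -0.28 and -0.26 there, 0.14 and 0.21 in IL-2-KO replicates 2 and 4, and -0.08 to 0.15 in WT.

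The comparison of IL-2-KO with WT asked which balance of survival and death transcripts CD8 T cells carried without interleukin-2. Bmf, a BH3-only gene, fell about 4-fold and Bcl2, the founding pro-survival gene, fell by 0.34 on the log2 scale, a change that was not stable to the choice of libraries. The remaining 7 members with values did not pass the test, and Mcl1, Bcl2l11 and Bid had log2 differences of 0.06, 0.04 and 0.01. By limma with Benjamini-Hochberg adjustment over 11530 tested genes (threshold 0.05), 2 of 9 members were called, against 19.2% of all tested genes. Both were lower in IL-2-KO, where 8.03% of all genes were called lower and 11.1% higher. The median log2 difference of the 9 members was 0.04, beside -0.01 for all genes, and the members ranged from -2.06 to 0.32.

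**Figure D1:**
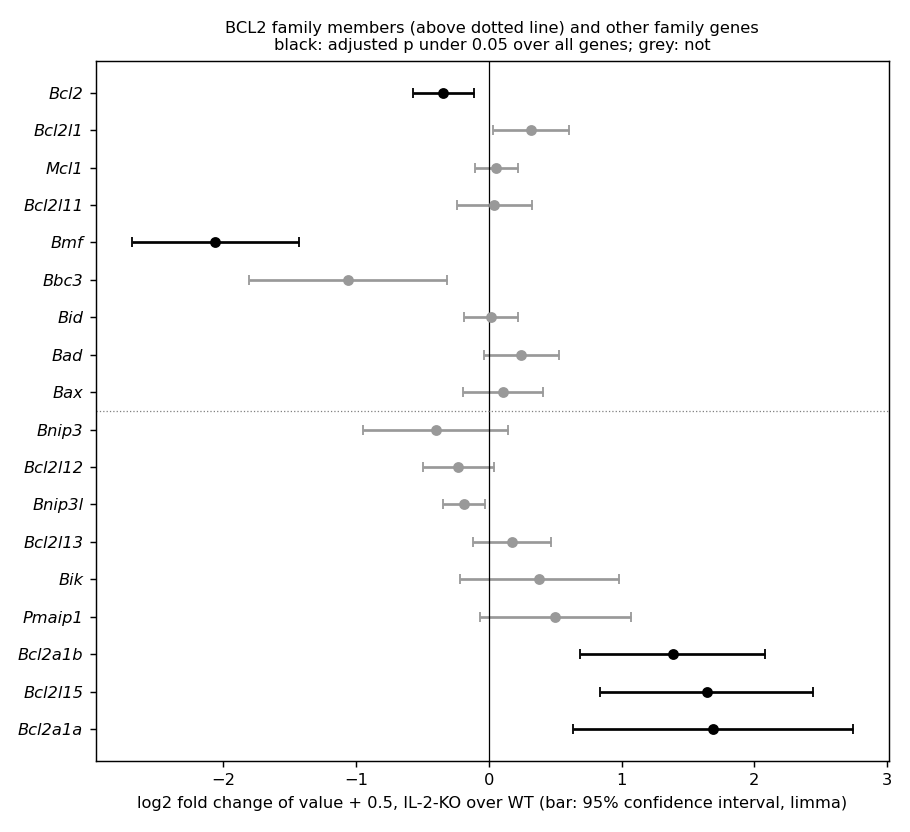
Log2 fold changes (IL-2-KO over WT, value + 0.5) with 95% confidence intervals from limma for the 9 members and 9 further BCL2 family genes, n = 4 libraries per group. Bmf lies farthest to the left at -2.06, Bcl2 at -0.34, and Bcl2l15, Bcl2a1b and Bcl2a1a lie to the right at 1.64, 1.39 and 1.69.

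Among the pro-survival genes, Bcl2 (Entrez 12043, chr1:106538176-106714290) had 162, 169.9, 161 and 191 CPM in IL-2-KO libraries 1 to 4, against 183, 247, 236 and 206 CPM in WT libraries 1 to 4. The IL-2-KO libraries lay lower, but the groups overlapped, since IL-2-KO replicate 4 was above WT replicate 1. The means were 170.9 ± 13.8 CPM in IL-2-KO and 218 ± 29.3 CPM in WT (SD, n = 4 each), a log2 difference of -0.34 (95% confidence interval -0.57 to -0.12) with a limma adjusted p of 0.0414. The difference stayed negative in all 23 alternative settings, from -0.43 to -0.25, but passed the threshold in 9 of them. It passed on leaving out WT replicate 1 or IL-2-KO replicate 4 and missed on leaving out any of the other 6 libraries singly (limma adjusted p 0.0768 to 0.128). Leaving out both libraries with myeloid transcripts (IL-2-KO replicate 3 and WT replicate 2), it was -0.25 (limma adjusted p = 0.144).

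Bcl2l1 (Bcl-xL, a survival protein induced on T cell activation; Entrez 12048) went the other way in level, with 33.9, 27.5, 39.1 and 28.4 CPM in IL-2-KO against 27.5, 27.9, 22.7 and 24.3 CPM in WT. IL-2-KO replicates 1 and 3 were the 2 highest of the 8 libraries and the other IL-2-KO libraries lay close to the highest WT library. The log2 difference was 0.32 (95% confidence interval 0.03 to 0.60), which did not pass (limma adjusted p = 0.113), and without IL-2-KO replicates 1 and 3, the libraries with lower long transcripts, it was 0.13, whereas with a correction for GC content and length over all 8 libraries it was 0.31 (limma adjusted p = 0.0607). Mcl1 (a short-lived survival protein that T cells need at every stage; Entrez 17210) had 623, 578, 552 and 574 CPM in IL-2-KO and 521, 547, 585 and 585 CPM in WT. The groups lay over each other, with a log2 difference of 0.06 whose interval ran from -0.11 to 0.22 (limma adjusted p = 0.633).

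Of the 5 BH3-only genes, 1 fell and 0 rose, beside 8.03% of all tested genes called lower and 11.1% called higher. Bmf (a sensor tied to the cytoskeleton through dynein light chain; Entrez 171543, chr2:118528757-118549686) had 2.24, 1.87, 3.75 and 1.01 CPM in IL-2-KO libraries, against 11.8, 10.3, 10.8 and 7.93 CPM in WT libraries. Every IL-2-KO library lay below every WT library, as was the case in one direction or the other for 24.2% of all tested genes. These levels rest on an estimated 18 to 69.7 counts per IL-2-KO library and 122 to 196.5 counts per WT library. The log2 difference was -2.06 (95% confidence interval -2.69 to -1.43, limma adjusted p = 7.98e-04), or 4.17-fold lower on the scale of value + 0.5. Its size depended on that added value: it was -2.28 with 0.1 and -1.56 with 2, and was called with both. IL-2-KO replicate 3, with the myeloid transcripts, had the highest Bmf of its group, and without it and WT replicate 2 the difference was -2.30. It was -2.17 between the libraries of over 20 M cells (limma adjusted p = 0.00627) and -1.95 between those of under 2 M (adjusted p = 0.114), the only one of 23 alternatives in which Bmf missed the threshold.

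**Figure D2:**
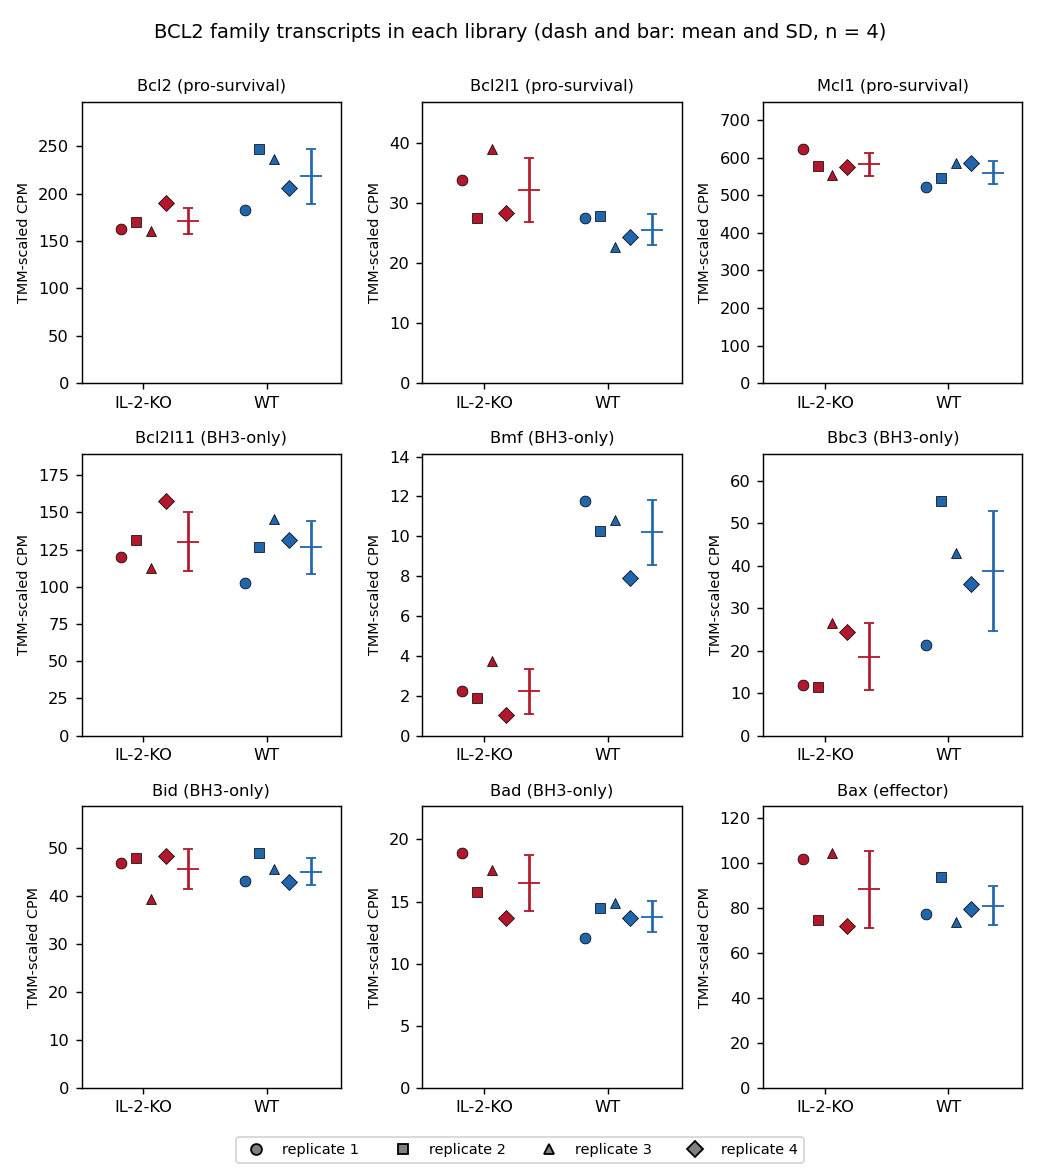
TMM-scaled CPM of the 9 members in each library, IL-2-KO (red) left of WT (blue), with 1 marker shape per replicate number and the mean and SD (n = 4) beside them. The groups are apart for Bmf (1.01 to 3.75 CPM in IL-2-KO, 7.93 to 11.8 CPM in WT) and overlap for the other 8 members.

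Bbc3 (Puma, a BH3-only gene induced by p53 and by FOXO3; Entrez 170770) had 11.9, 11.5, 26.6 and 24.3 CPM in IL-2-KO and 21.3, 55.2, 43.0 and 35.6 CPM in WT. Overlap came from WT replicate 1 alone, which lay below IL-2-KO replicates 3 and 4. The means were 18.6 ± 7.98 and 38.8 ± 14.2 CPM, and the log2 difference of -1.06 (95% confidence interval -1.81 to -0.32) just missed the threshold (limma adjusted p = 0.0512). It passed in 10 of 23 alternatives, among them leaving out WT replicate 1 (adjusted p = 0.0257) or IL-2-KO replicate 3 (0.0318) or 4 (0.0382), with adjusted p from 0.00370 to 0.139 over all of them, and was negative in each. The difference was -1.51 between libraries of over 20 M cells and -0.61 between those of under 2 M, a gap that was not tested.

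Bcl2l11 (Bim; Entrez 12125, chr2:128126038-128162547) had 120.2, 132, 112 and 158 CPM in IL-2-KO and 103, 127, 146 and 131 CPM in WT. The highest library was IL-2-KO and the lowest WT, and the groups covered much the same range. Its log2 difference was 0.04 (95% confidence interval -0.24 to 0.32, limma adjusted p = 0.850). Bid (which links death receptors to mitochondria after cleavage; Entrez 12122) had 46.8, 47.9, 39.3 and 48.3 CPM in IL-2-KO and 43.0, 48.8, 45.5 and 42.8 CPM in WT, a log2 difference of 0.01 (interval -0.19 to 0.22). Apart from IL-2-KO replicate 3, the lowest of all 8, the Bid values lay within the WT range. Bad (held inactive by phosphorylation and 14-3-3 proteins; Entrez 12015) had 18.9, 15.8, 17.5 and 13.7 CPM in IL-2-KO against 12.0, 14.5, 14.9 and 13.7 CPM in WT. Its 3 highest values were IL-2-KO libraries, and the log2 difference of 0.24 (interval -0.04 to 0.53) did not pass (limma adjusted p = 0.212).

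For the effectors, Bax (which inserts into the outer membrane to form the pore; Entrez 12028, chr7:45461695-45466903) had 102, 74.6, 104 and 72.0 CPM in IL-2-KO and 77.5, 93.6, 73.8 and 79.3 CPM in WT. The IL-2-KO libraries formed a high pair above the WT range and a low pair at its lower end. In the low pair, replicate 2 lay within the WT range and replicate 4 just below it. The log2 difference was 0.11 (95% confidence interval -0.20 to 0.41, limma adjusted p = 0.627). The high pair, replicates 1 and 3, were the libraries with lower long transcripts. Both libraries of that pair lay above both other IL-2-KO libraries in 4 members (Bax, Bcl2l1, Bad and Bmf). They lay below them in 3 (Bcl2, Bcl2l11 and Bid) and neither in Mcl1 and Bbc3. The share of all genes placed so was not counted, so these counts cannot be read as a trait of the members. Over genes in general, the chi-square per gene was 19.9 between IL-2-KO replicates 1 and 3 and 11.6 between 2 and 4. Between libraries of different pairs it was 29.9 to 58.8. Without replicates 1 and 3 the log2 difference was -0.14 for Bax, -0.27 for Bcl2 (limma adjusted p = 0.146) and -2.49 for Bmf, which still passed. With the correction for GC content and length it was 0.06 for Bax, -0.30 for Bcl2 (limma adjusted p = 0.0572) and -2.03 for Bmf, which passed.

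Per kilobase of annotated exon, a scale on which genes can be compared, Mcl1 was the most abundant member in both groups (170.2 ± 8.72 CPM per kb for IL-2-KO and 164 ± 9.10 for WT; SD, n = 4 each). Bax was next, with 66.0 ± 12.9 for IL-2-KO and 60.6 ± 6.51 for WT, and did not overlap with Mcl1 or with the members after it. Bcl2 had 18.7 ± 1.5 CPM per kb for IL-2-KO and 23.8 ± 3.20 for WT, beside Bcl2l11 at 18.9 ± 2.87 and 18.4 ± 2.57, and Bid at 18.6 ± 1.74 and 18.4 ± 1.15. These 3 could not be ordered beyond their spread in IL-2-KO. Bbc3 belonged with them in WT (19.3 ± 7.04) but lay at 9.23 ± 3.96 in IL-2-KO, next to Bcl2l1 (7.03 ± 1.17) and Bad (6.88 ± 0.939). Bmf was the lowest member in both groups, with 0.459 ± 0.237 for IL-2-KO and 2.11 ± 0.338 for WT. The annotated exons may be longer than the isoforms used in these cells, which lowers such values.

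Ratios within a library do not depend on its scaling, and are given as descriptions without a test. The ratio of Bcl2 to Bcl2l11 was 1.35, 1.29, 1.43 and 1.21 in IL-2-KO libraries and 1.78, 1.95, 1.62 and 1.57 in WT libraries. The groups did not overlap in this ratio, although they did in Bcl2 alone and in Bcl2l11 alone, and for comparison 12.5% of all tested genes had a ratio to Bcl2l11 that did not overlap. Bcl2 to Bbc3 went the other way in the mean (IL-2-KO 10.6 ± 4.27, WT 6.09 ± 1.75), and Bcl2 to Bax was 2.02 ± 0.540 and 2.70 ± 0.358, both with overlap. The ratio of Mcl1 to Bcl2 was 3.42 ± 0.338 in IL-2-KO and 2.59 ± 0.310 in WT (SD, n = 4 each), again without overlap, as for 28.0% of all genes set against Bcl2, and Mcl1 to Bcl2l11 was 4.53 ± 0.680 and 4.46 ± 0.443, with overlap. Bcl2l11 was 53.6, 70.4, 30.0 and 157 times the Bmf level in IL-2-KO and 8.74, 12.3, 13.4 and 16.6 times in WT, and 11295 of 11529 genes likewise had a ratio to Bmf without overlap. Summed per kb, the pro-survival members reached 196 ± 8.33 CPM per kb in IL-2-KO and 193 ± 10.4 in WT, and the BH3-only members 54.1 ± 4.49 and 63.9 ± 10.3. Their ratio was 3.64 ± 0.370 in IL-2-KO and 3.07 ± 0.399 in WT, with overlapping groups. Mcl1 gave 86.9% ± 0.884 of the pro-survival sum in IL-2-KO and 84.8% ± 1.38 in WT, and Bcl2 gave 9.54% ± 0.880 and 12.3% ± 1.33. The ratio of the sums therefore mostly sets Mcl1 against the BH3-only members. Bmf gave 0.864% ± 0.456 of the BH3-only sum in IL-2-KO and 3.397% ± 0.976 in WT, and Bbc3, which was not called, gave 16.8% ± 6.56 and 29.4% ± 6.65.

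**Figure D3:**
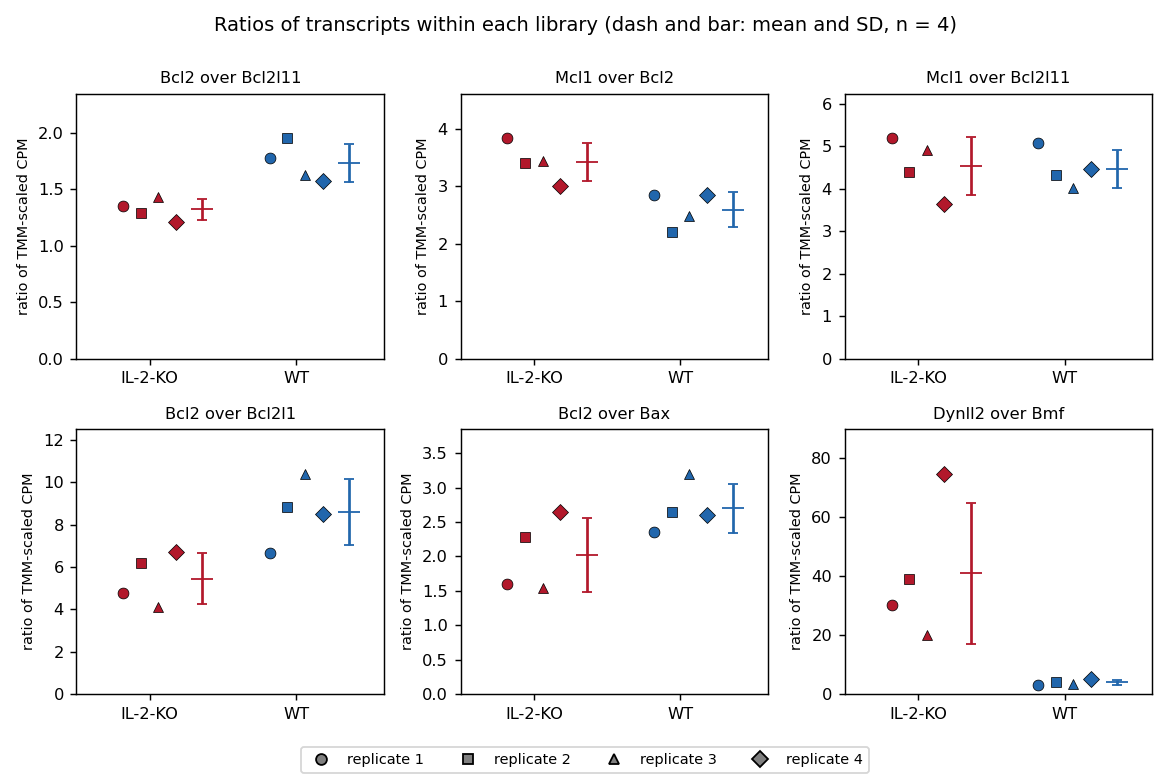
Ratios of TMM-scaled CPM within each library, IL-2-KO (red) left of WT (blue), with the mean and SD (n = 4) beside the points. Bcl2 over Bcl2l11 spans 1.21 to 1.43 for IL-2-KO and 1.57 to 1.95 for WT, and Mcl1 over Bcl2l11 overlaps between the groups.

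The genes whose log2 levels ran most like Bcl2 over the 8 libraries were Smyd3 (Pearson r = 0.980), Psma3 (0.978) and Matr3 (0.974), and those most like Bmf were Ggt1 (0.993), Klk8 (0.991) and Xlr4b (0.984). Such values describe libraries that fall into groups. Each r was taken over all 8 libraries, so the genotype difference and the spread within groups were not separated. These genes were picked as the highest r among the tested genes outside the members, and their values are a description. Ggt1, a gamma-glutamyl transferase gene, had 31.1, 28.4, 38.04 and 20.9 CPM in IL-2-KO and 93.0, 83.1, 82.5 and 80.3 CPM in WT.

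Dynein light chains are the known anchors of Bmf and Bcl2l11, and their docking site is shown for both as 18 coding bases of the same transcripts.
Bmf: gacaaggccactcagacc
Bcl2l11: gacaagtcaacacaaacc
The Bmf site lies in exon 3 at chr2:118546792-118546809 (minus) and the Bcl2l11 site in exon 2 at chr2:128128951-128128968 (plus), with 14 of 18 bases the same. Dynll2, the light chain that binds Bmf, rose 1.85-fold, with 67.6, 72.7, 74.6 and 75.3 CPM in IL-2-KO against 37.1, 42.1, 37.97 and 39.2 CPM in WT (limma adjusted p = 8.63e-05). The groups lay far apart, and it was called in all 23 alternatives. Of the 10 listed partners and turnover factors of the members, Dynll2 was the only one called (10%), beside 19.2% of all tested genes. Ywhae, a 14-3-3 gene, had a log2 difference of 0.18 (limma adjusted p = 0.0883) and Bag1, a BCL2 co-chaperone gene, 0.21 (0.286).

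Of 15 further BCL2 family genes, 9 could be tested, and 3 rose and 0 fell, beside 11.1% of all tested genes higher and 8.03% lower; their median log2 difference was 0.38, and that of all genes -0.01. Bcl2l15, a little-studied family gene, had 6.23, 3.99, 7.74 and 3.02 CPM in IL-2-KO and 0.958, 2.87, 0.691 and 1.09 CPM in WT (log2 difference 1.64, limma adjusted p = 0.0107). Bcl2a1a and Bcl2a1b encode A1, a pro-survival protein induced by antigen receptor and NF-kB signals. Bcl2a1b had 35.8, 28.1, 73.2 and 24.2 CPM in IL-2-KO against 12.9, 19.9, 12.4 and 10.9 CPM in WT (log2 difference 1.39, limma adjusted p = 0.0124), with no overlap. Bcl2a1a had 8.60, 6.70, 25.4 and 5.29 CPM in IL-2-KO against 2.31, 5.84, 1.81 and 1.71 CPM in WT (log2 difference 1.69, limma adjusted p = 0.0326). Both A1 genes, which neutrophils and macrophages also express, were highest in IL-2-KO replicate 3 and WT replicate 2. Without those libraries the log2 differences were 1.23 for Bcl2a1b and 1.57 for Bcl2a1a, both called. Bcl2a1a missed the threshold on leaving out WT replicate 1, 3 or 4 or IL-2-KO replicate 1 (limma adjusted p 0.0576 to 0.0984). Without IL-2-KO replicates 1 and 3 together, Bcl2a1b was still called (0.91, limma adjusted p = 0.0166), but Bcl2a1a (1.06, adjusted p = 0.0901) and Bcl2l15 (1.19, adjusted p = 0.0609) were not. With only libraries of over 20 M cells, 0 of these further family genes were called, beside 364 of 11622 tested genes. With only those of under 2 M, 0 were called, beside 457 of 11564.

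The A1 paralogs are nearly identical (505 of 516 coding bases), so their reads may have been divided between them. Their first 60 coding bases are shown because they hold 5 of the differences, in capitals.
Bcl2a1a: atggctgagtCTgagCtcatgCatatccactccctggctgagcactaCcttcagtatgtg
Bcl2a1b: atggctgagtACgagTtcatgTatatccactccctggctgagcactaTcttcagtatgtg
These stretches lie in exon 1 at chr9:88957051-88957110 and chr9:89199360-89199419, both on the plus strand of GRCm38. The other 6 tested genes had log2 differences of -0.40 for Bnip3, -0.23 for Bcl2l12, -0.19 for Bnip3l, 0.17 for Bcl2l13, 0.38 for Bik and 0.50 for Pmaip1 (Noxa, which binds Mcl1), and none passed. Bcl2l2 (Bcl-w) was below the filter, at 0.871, 1.57, 2.21 and 1.40 CPM in IL-2-KO and 0.898, 0.843, 0.345 and 0.241 CPM in WT. Bcl2a1d, Bcl2l10, Bok, Hrk and Bcl2l14 were not analysed here.

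Downstream of the mitochondrion, 4 of 13 apoptosome and mitochondrial death factors rose and 1 fell, beside 11.1% of all genes higher and 8.03% lower, with a median log2 difference of 0.13. Apaf1, the scaffold of the apoptosome, had 54.0, 70.5, 59.5 and 70.1 CPM in IL-2-KO and 44.4, 42.6, 46.6 and 46.9 CPM in WT (log2 difference 0.48, limma adjusted p = 0.00749), with no overlap. Vdac1 (0.24) and Diablo (-0.27) were also called and were named after their values were seen; each missed the threshold on leaving out 6 of the 8 libraries singly (limma adjusted p up to 0.141 and 0.134). Among 5 inhibitors of apoptosis, 2 rose: Birc5 (survivin, also a mitotic protein) by 1.80 and Birc3 (a ubiquitin ligase induced by NF-kB) by 0.55 on the log2 scale, while Birc6 was at -0.15 and not called. In the death receptor pathway, 2 of 12 genes fell, and the 1 gene called higher, Fasl, met the filter on low values only through the IL-2-KO libraries, so its values are a description. Fasl, the ligand of Fas, had 1.88, 3.19, 5.27 and 4.98 CPM in IL-2-KO and 0.120, 0.843, 0.173 and 0.181 CPM in WT, where all 4 libraries were under the filter value of 1. It did not enter the test with a filter of 5 or on leaving out any IL-2-KO library. Cflar, which restrains death receptor signalling, fell by 0.33 and Tnfrsf1a, a tumour necrosis factor receptor gene, fell by 0.29 on the log2 scale. The Tnfrsf1a call held on leaving out IL-2-KO replicate 1 and was lost on leaving out any of the other 7 libraries (limma adjusted p 0.0643 to 0.133).

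The upstream lists hold factors known to induce members (FOXO factors, p53 and the chain to STAT5) together with other targets of these factors. Of 13 FOXO factors and targets, 4 fell and 0 rose, beside 8.03% of all tested genes lower and 11.1% higher, with a median log2 difference of -0.44. The number that fell was 1 without WT replicate 3 (beside 437 of 11480 tested genes called lower). It was 2 without IL-2-KO replicate 2 (675 of 11415) or under the replicate block (486 of 11530), and 3 to 6 on leaving out each other library. With only libraries of over 20 M cells it was 0 (54 of 11622), and with only those of under 2 M it was also 0 (89 of 11564). Cdkn1b (a cell cycle inhibitor) averaged 162 ± 15.5 CPM in IL-2-KO and 230.3 ± 20.9 CPM in WT, Rictor 278 ± 42.2 and 376 ± 18.9 CPM, and Txnip 602 ± 162 and 929 ± 113 CPM (limma adjusted p = 0.00385, 0.0154 and 0.0212). The other called gene was Pik3ip1 (-0.52), named after its value was seen. Rictor missed the threshold without WT replicate 3 (limma adjusted p = 0.0549), Txnip when IL-2-KO replicate 1, 2 or 3 or WT replicate 1 or 3 was left out (0.0509 to 0.0724), and Pik3ip1 on leaving out 6 of the 8 libraries singly (up to 0.128). Of 10 tested genes of p53 and its targets, 2 rose (Ccng1 by 0.36 and Sesn2 by 0.83 on the log2 scale) and 1 fell (Sesn1, with 101 ± 8.82 CPM in IL-2-KO and 169 ± 17.7 CPM in WT, limma adjusted p = 6.08e-04). Ccng1 missed when IL-2-KO replicate 2 (limma adjusted p = 0.0506) or WT replicate 1 (0.0514) was left out, and Sesn2 when IL-2-KO replicate 2 (0.0524) or WT replicate 4 (0.0523) was. Of 15 genes from cytokine receptor to STAT5, 6 rose and 0 fell, beside 11.1% of all genes higher and 8.03% lower, with a median of 0.21. The number that rose was 1 with only libraries of over 20 M cells (beside 310 of 11622 tested genes called higher). With only those of under 2 M it was 3 (368 of 11564), and on leaving out each library it was 5 to 7. Jak3, the kinase of the common gamma chain, averaged 550.3 ± 36.3 CPM in IL-2-KO and 331 ± 20.2 CPM in WT, Il15ra 38.5 ± 6.48 and 22.2 ± 1.26 CPM, and Pim2, a survival kinase gene, 241 ± 15.6 and 179 ± 9.23 CPM (limma adjusted p = 1.95e-04, 0.00205 and 0.00249). These lists were counted, not tested as sets. In whole sorted populations, fewer cells expressing a gene and less RNA per cell cannot be told apart, for the members as for these lists.

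**Figure D4:**
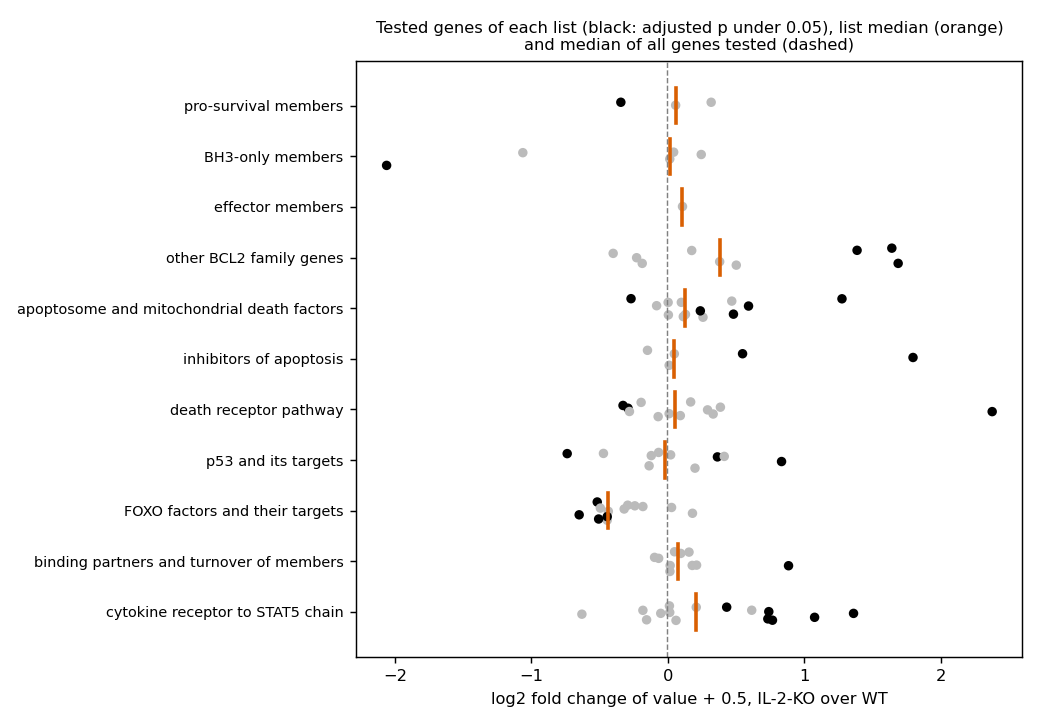
Log2 fold changes (IL-2-KO over WT, value + 0.5) of the tested genes of each list, black where the limma adjusted p was under 0.05, with the list median in orange and the median of all 11530 genes dashed. The black point above 0 in the death receptor list is Fasl, which met the filter only through IL-2-KO libraries; the FOXO list has its median at -0.44 and the list of other BCL2 family genes at 0.38.

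FOXO factors are known to induce Bcl2l11 and Bbc3, so promoter windows were searched for the FOXO motif TGTTTAC or its reverse complement GTAAACA. RefSeq windows of 300 bases (GRCm38.p6) around transcript starts held it in 3.65% of 32851 windows and in 2 of 18 windows of the members, shown with the motif in capitals.
Bcl2l11: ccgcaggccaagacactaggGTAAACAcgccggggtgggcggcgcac
Bbc3: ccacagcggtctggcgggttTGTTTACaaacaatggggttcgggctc
The Bcl2l11 stretch is chr2:128125791-128125837 (plus), with the motif 227 bases before a start, and the Bbc3 stretch chr7:16310074-16310120 (plus), 167 bases before a start. Of the genes with a match, Bcl2l11 had a log2 difference of 0.04 and Bbc3 one of -1.06, neither called, and Bmf had no match in its windows. The STAT motif TTCNNNGAA was in 8.30% of all windows and in 0 of 18 windows of the members.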

How the data were processed

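The members, gene lists, tests and alternatives were chosen with earlier results of these data known. The deposited table gives 1 signal value per gene and library, which the authors named TMM-scaled CPM (linear, not log-transformed). Per the submitters' processing notes, the tools were featureCounts, R 3.4.3 and limma 3.34.9, with mm10 and GRCm38 named as builds; the aligner and the strand setting are not given in the sources used here. The column sums are not exactly 1e6, so the planned test for CPM was applied to a TMM-scaled signal. In each library 100% of values under 20 were whole hundredths of a count (within 0.05 of a hundredth), as fractional counting gives, but only 54.6% to 65.0% were whole reads (within 0.001), so no count test was run; intervals and depths cover no PCR duplicates.

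Entrez identifiers were matched to RefSeq symbols of GRCm38 (11651 matched, 72 not). Values became log2(value + 0.5), and genes of at least 1 in at least 4 of 8 libraries (11530), or in a like share of the libraries of a smaller fit, were tested with limma 3.58.1 in R 4.3.3 (empirical Bayes with a trend, Benjamini-Hochberg over all genes, threshold 0.05). The steps were tested on simulated data. Il2 was tested by exact permutation. The series' design text calls the libraries biological replicates, and no 2 of a group agreed within counting noise (chi-square per gene at least 5.03). Named were all members, all further BCL2 family genes, up to 3 genes per pathway list with the smallest p, and the 3 genes most like each called member; some genes under this rule are not reported here. Alternatives were other pseudocounts (0.1 and 2), filters (none and 5), scalings, a replicate block, cell number class, array weights, no trend and left-out libraries; a GC and length correction and leaving out IL-2-KO replicates 1 and 3 were added after seeing the data.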

Additional observations from a re-analysis of the deposited data

Results flagged for a closer look

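In each of 90 groups of 4 libraries (45 named genes), the highest or lowest library was compared with the others by Dixon's gap; chance marks about 1 in 20 groups. IL-2-KO replicate 3 was marked 4 times: its Bid was lowest at 39.3 CPM (46.8 to 48.3 in the rest of its group), and it was highest in Bcl2a1a at 25.4 CPM (5.29 to 8.60), Pmaip1 at 34.97 CPM (17.1 to 19.7) and Birc5 at 66.4 CPM (37.9 to 40.0). WT replicate 2 was marked 4 times: it was highest in Bcl2a1a at 5.84 CPM (1.71 to 2.31 in the rest of its group), Bnip3 at 5.94 CPM (2.96 to 3.37) and Fasl at 0.843 CPM (0.120 to 0.181), and lowest in Bcl2l13 at 54.5 CPM (69.96 to 72.3). These are the 2 libraries with summed myeloid markers of 315 and 50.4 CPM, whose part in these values was not tested. Sesn2 was lowest in IL-2-KO replicate 1 at 6.25 CPM (8.49 to 8.74), and Psma3 highest in IL-2-KO replicate 4 at 45.8 CPM (38.8 to 39.5).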

How the results depend on the processing

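Over 23 alternatives the 9 members gave 207 values, of which 168 kept their direction and side of the threshold, 15 lost the call (14 for Bcl2 and 1 for Bmf), 10 gained it (all Bbc3) and 14 changed sign, all of members that were not called. The main fit called 2211 genes. Separate fits called 1397 with the replicate block, 364 with only libraries of over 20 M cells, 457 with only those of under 2 M and 4359 with array weights. On leaving out each library, 1284 to 2184 were called. Overlap of these calls with the 2211 was not counted. The cause of these differences was not tested, beyond the fewer samples of the subsets. Members called numbered 1 with only libraries of over 20 M cells (beside 364 of 11622 tested genes). They numbered 0 with only those of under 2 M (457 of 11564 genes; limma, 2 against 2 in both). The number was 1 without WT 2 and IL-2-KO 3 (2070 of 11467 genes) and 1 without the trend (2022 of 11530). It was also 1 without IL-2-KO 1 and 3 (2580 of 11434, added after seeing the data), and 1 to 3 on leaving out each library. Il2 was at -0.11 with quantile normalization, -0.0152 with libraries of under 2 M cells, -0.12 without WT 2 and IL-2-KO 3, -0.065 without IL-2-KO 1 and 3, and from -0.10 to 0.20 on leaving out each library. With libraries of under 2 M cells, Mcl1 was at -0.0546, Bcl2l11 at -0.0532, Bid at -0.0193 and Bik at -0.12. Bid was at -0.0145 with the median shift and -0.0042 with quantile normalization, and ranged from -0.0154 to 0.0829 on leaving out each library; Bcl2l11 ranged from -0.0535 to 0.11. With array weights Bax was at -0.0177 and Birc6 at 0.0464, and without IL-2-KO 1 and 3 Bax was at -0.14, Birc6 at 0.21 and Bag1 at -0.022. Same-numbered libraries of the groups share only a number (correlations of their deviations 0.08, -0.53, -0.40 and 0.39), and under the replicate block Bbc3 passed (limma adjusted p = 0.0460) and Bcl2 missed (0.0804). At an estimated 18 to 69.7 counts per IL-2-KO library, Bmf was the member whose values depth limits most.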
